A study of Mus musculus with 4 samples.

Results

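Stem-like tumour-initiating cells from mouse liver, cultured with all-trans retinoic acid (ATRA), were compared gene by gene with a vehicle culture. Of the 4 libraries in the series, 2 enter this comparison, and 8616 of the 23359 rows of the expression table were counted, those averaging 1 FPKM or more across the 4 libraries. FPKM is the number of fragments per kilobase of transcript scaled to sequencing depth. The cells were isolated from liver tumours of C57BL/6 mice and grown in medium with serum, EGF and dexamethasone, which all groups therefore share. The ATRA culture received 5 µg/ml for 16 hours. The labels say that the control culture received vehicle, and name neither the solvent nor the duration. The other 2 libraries came from cells given suberoylanilide hydroxamic acid (SAHA, a histone deacetylase inhibitor) at 0.5 µg/ml, alone or with ATRA, and serve here as a further pair that differs by ATRA. Nothing in the labels says whether the cultures came from 1 tumour, 1 animal or 1 passage, and there was 1 library per group, so no difference below has a replicate check, an error or a p-value.

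ATRA is the active form of vitamin A. It binds retinoic acid receptors (RARs), which sit on DNA as pairs with retinoid X receptors (RXRs) and exchange corepressors for coactivators when ATRA is bound. Target genes include enzymes and transporters that hold cellular retinoid levels in balance, and the liver is the main vitamin A store of the body. In many tumour cells ATRA is known as an inducer of differentiation.

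A gene was called higher or lower when log2(FPKM + 1) differed by 1 or more, named the 2-fold mark below. The added 1 understates the difference most near or below 1 FPKM, but also at several FPKM. Genes over 2-fold in FPKM can therefore be uncalled: Dtx3l, at 4.14 FPKM in vehicle and 1.58 with ATRA, differed by -0.996. Folds are ratios of the FPKM values themselves. The main features were a few genes far above vehicle, led by Dhrs3 and the proliferin genes, a moderate excess of detoxification and antioxidant genes, and a lower level across interferon-stimulated genes. Of the 8616 counted rows, 79 (0.917%) were higher and 103 (1.2%) lower, 2.11% in either direction. Small RNAs made up 63 of these 182 calls, and without them 43 of 8468 genes (0.508%) were higher and 76 (0.897%) lower, 1.41% in either direction. The median difference of the 8468 genes was -0.00, 92.6% of them lay within 0.5 of 0 on the log2 scale, and 49.5% lay above 0. Judged by the smallest spacing among low values, a transcript of 1 kilobase at 1 FPKM had roughly 98.5 fragments in vehicle and 100.2 in ATRA, so depth was similar. In bulk RNA, fewer cells expressing a gene and less RNA per cell cannot be told apart.

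**Figure D1:**
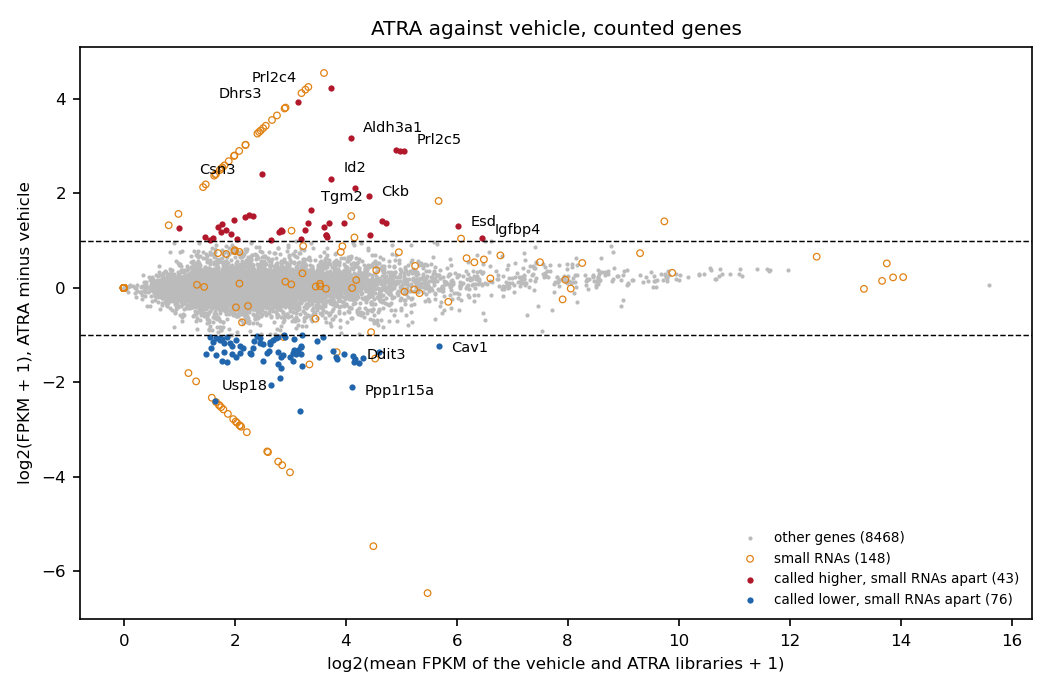
Difference in log2(FPKM + 1) between the ATRA and vehicle libraries (vertical axis) against log2 of their mean FPKM + 1 (horizontal axis), 1 point per counted row, with the 2-fold marks dashed. Most genes lie close to 0, the 43 higher and 76 lower genes are coloured, and the small RNAs (open circles) form diagonal lines where 1 of the 2 libraries is listed at 0.

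Retinoid enzymes and transporters came first. Dhrs3, the short-chain reductase that returns retinaldehyde to retinol, was at 0.0780 FPKM in the vehicle library, 15.5 with ATRA, 0.119 with SAHA and 0.153 with SAHA plus ATRA (chromosome 4, 144892827 to 144927645 on mm10). Only the ATRA library was above 1 FPKM, and its level was 199-fold that of vehicle, a log2 difference of 3.94. Stra6, the membrane transporter for retinol, was at 0.0160 FPKM in vehicle and 1.17 with ATRA, a log2 difference of 1.09, and did not reach the mean of 1 FPKM needed to be counted. Cyp26b1, an enzyme that degrades retinoic acid, was at 0.0265 FPKM against 0.377, and Cyp26a1, its relative and often the most inducible of the family, at 0.0401 with vehicle and 0.0283 with ATRA. Thus genes of retinoid handling with near-zero vehicle levels included ones with much higher values under ATRA (Dhrs3, Stra6, Cyp26b1) and ones without (Cyp26a1).

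Most other genes of retinoid handling differed little, with Dhrs9, lower with ATRA, an exception. Crabp1, which encodes a cytosolic retinoic acid-binding protein, had the highest level of the pathway at 85.4 FPKM in vehicle and 70.5 with ATRA. Crabp2, the carrier that delivers retinoic acid to RARs, was at 1.35 and 1.89 FPKM, and Fabp5, a fatty acid-binding protein that can also carry it, at 2.07 and 2.88. Rdh11, a retinol dehydrogenase, was at 10.8 and 15.04 FPKM, while its relative Rdh14 was at 4.80 and 3.31 and Dhrs9 at 1.79 and 0.455. Aldh1a1, Aldh1a2 and Aldh1a3, the enzymes that make retinoic acid, were all under 0.1 FPKM in both libraries. Of 20 listed enzymes 6 were counted, with Dhrs3 the 1 called higher (0.508% over all counted genes outside small RNAs) and 0 lower. Dhrs3 was counted only through its level in the ATRA library, so nothing is read from this count. None of the 3 counted carriers was called in either direction.

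Receptor genes differed by less than 2-fold. Rarg was at 8.76 FPKM in vehicle and 14.2 with ATRA, a log2 difference of 0.64, and was at 2.004 with SAHA and 2.97 with SAHA plus ATRA. Rara was at 3.05 and 3.93 FPKM, Rxra at 2.18 in both, and Rxrb at 4.14 and 3.62. Rarb, a classical ATRA target whose promoter is a textbook example of a retinoic acid response element, was at 0.747 FPKM in vehicle and 1.11 with ATRA. Nrip1, a ligand-dependent corepressor that is itself induced by retinoids, was at 2.97 and 5.46 FPKM. Ncor1, Crebbp and Ep300, a corepressor and a pair of coactivators, differed by -0.24, -0.31 and -0.18. Of 13 coregulator genes 9 were counted and 0 called.

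Of the counted retinoic acid target genes, Dhrs3 and Tgm2 were called. Dhrs3 reached the filter only through the ATRA library, so its being counted and its being called are not separate facts. Tgm2, tissue transglutaminase, was at 3.98 FPKM in vehicle, 14.7 with ATRA, 3 with SAHA and 4.45 in the combination (chromosome 2, 158116405 to 158146392), a log2 difference of 1.66 between the ATRA and vehicle libraries. Rai14 stood at 11.8 and 19.1 FPKM and Gata6, an endoderm transcription factor gene, at 2.91 and 4.93. Egr1 and Plat, both listed as retinoid-responsive, were on the other side at 4.92 against 2.64 and 2.06 against 0.891 FPKM with ATRA. Of 48 listed targets 16 were counted, of which 2 were higher (0.508% over all counted genes outside small RNAs), 0 lower and 8 above 0, with a median of 0.10 against -0.00 for all counted genes outside small RNAs. With a mean of at least 5 FPKM required, the median of the targets was -0.02. None of the 39 Hox genes, several of which are retinoid targets in the embryo, was counted.

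**Figure D2:**
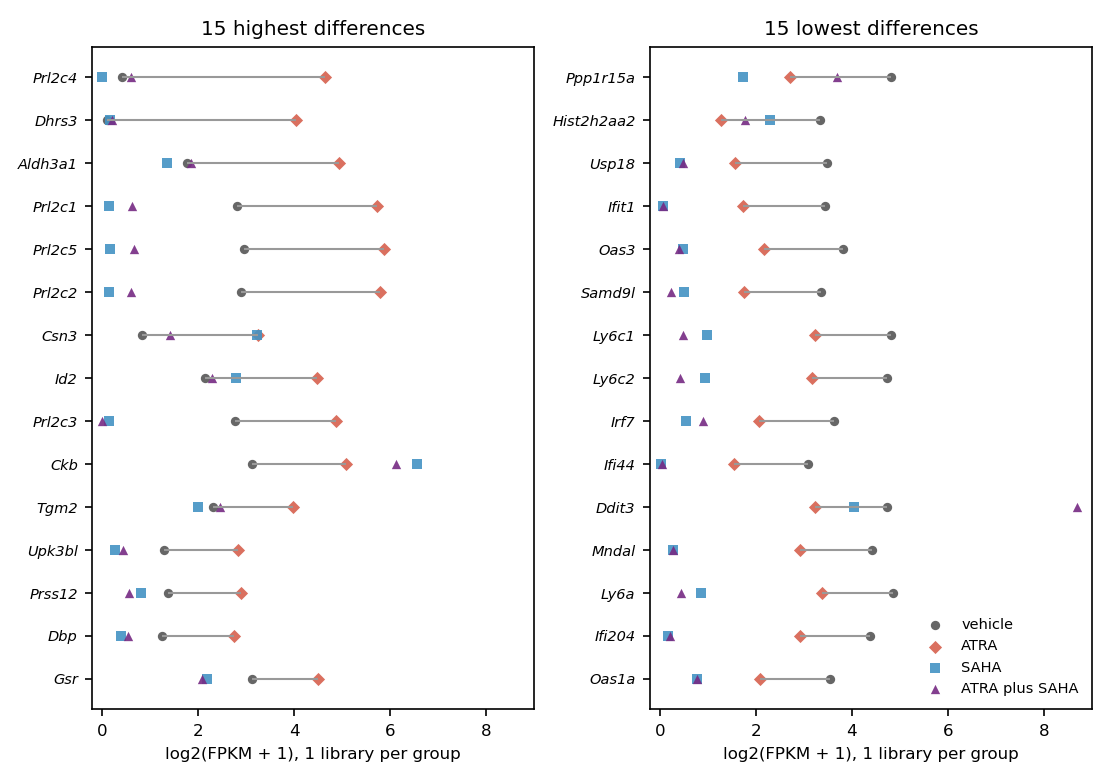
Expression as log2(FPKM + 1) (horizontal axis) of the 15 genes with the highest and the 15 with the lowest ATRA minus vehicle difference, among named genes that reached 5 FPKM in 1 of these libraries. Each marker is 1 library and the grey bar joins vehicle and ATRA. For Dhrs3 and Aldh3a1 the libraries with SAHA lie near vehicle, while the interferon genes on the right reach their lowest values with SAHA.

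The proliferin genes were the most prominent hormone genes above vehicle. They encode placental, prolactin-like growth factors, which fibroblast lines also secrete. Prl2c2 was at 6.46 FPKM in vehicle, 54.3 with ATRA, 0.103 with SAHA and 0.520 in the combination. Prl2c1 and Prl2c5 had like values, 52.1 and 57.3 FPKM with ATRA against 6.05 and 6.77. Prl2c3 and Prl2c4 are listed at the same position (chromosome 13, 12790818 to 12800079), and the authors' counting may have split reads between these near-identical genes, so the sum is the safer quantity. The 5 genes together held 25.4 FPKM in vehicle, 216 with ATRA, 0.444 with SAHA and 2.14 with SAHA plus ATRA. The ATRA sum was 8.50-fold the vehicle sum. Csn3, the kappa-casein gene and a target of prolactin signalling in the mammary gland, was at 0.768 FPKM in vehicle and 8.46 with ATRA. Prlr, the prolactin receptor, was at 0.0272 and 0.0266. A link between the proliferin genes and Csn3 was not tested. Csn3 was at 8.39 with SAHA alone and 1.68 with both, and its row overlaps another one in the table. Of 10 genes of the prolactin list 6 were counted and called higher, and the other 4 stayed under the filter. The filter bears on this count, since Prl2c4 reached the mean of 1 FPKM only through the ATRA library, so nothing is read from it.

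Aldh3a1 led the genes of the aryl hydrocarbon receptor (AhR), a ligand-activated factor that induces enzymes clearing foreign and lipid-derived compounds. Aldh3a1, an aldehyde dehydrogenase, was at 2.42 FPKM in vehicle, 29.7 with ATRA, 1.55 with SAHA and 2.62 in the combination (chromosome 11, 61208742 to 61218416), a log2 difference of 3.16. Cyp1a1, the marker enzyme of AhR activity, was at 0.890 FPKM against 3.64 with ATRA, and Cyp1a2, under the filter, at 0.336 against 1.25. Nqo1, a quinone reductase shared with the NRF2 pathway, was at 6.11 against 16.4, and the glutathione transferase gene Gsta4 at 1.05 against 3.68. Other AhR targets did not go along: Tiparp was at 10.2 FPKM in vehicle and 7.38 with ATRA, and Cyp1b1 at 0.238 and 0.108. Ahr itself was at 5.63 and 6.08 and Arnt, its partner, at 0.973 and 0.935. Of 13 listed enzymes and targets 5 were counted and 4 of these were higher, where 0.508% of all counted genes outside small RNAs were. Cyp1a1, 1 of the 4, reached the filter only through the ATRA library, so its being counted and its being called are not separate facts. Nqo1 and Gsta4 belong to the NRF2 list too and are counted again there.

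NRF2 (Nfe2l2) drives a wider antioxidant programme, and its genes had moderate differences in 1 direction. Of 47 counted genes in that list 6 were higher, 0 lower and 38 above 0, with a median of 0.44, where 0.508% of all counted genes outside small RNAs were higher and 49.5% were above 0. The glutathione reductase gene Gsr was at 7.65 FPKM in vehicle and 21.6 with ATRA, the highest difference of the list at 1.38. Blvrb, biliverdin reductase B, was at 6.83 and 16.1 FPKM, Taldo1, a pentose phosphate enzyme, at 12.6 and 28.5, and the microsomal glutathione transferase gene Mgst1 at 5.03 and 11.4. Gstp1 and Gstp2, paralogs that may share reads, lay just under the mark at 0.991 and 0.996. All 14 counted thioredoxin and redox enzyme genes were above 0. The regulators differed otherwise: 2 of 7 were above 0 and the small Maf gene Mafk was at -0.78. Gpx1, a selenium-dependent peroxidase, was at 58.9 FPKM in vehicle and 36.8 with ATRA.

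Of the list on Id genes and TGF-beta/BMP signalling, only Id genes were called. Id proteins lack a DNA-binding region and hold basic helix-loop-helix factors inactive. Id2 was at 3.44 FPKM in vehicle, 21.1 with ATRA, 5.95 with SAHA and 3.92 in the combination (chromosome 12, 25093799 to 25096092), a log2 difference of 2.31. Id1 was at 4.58 and 13.4 FPKM (1.37), and Id3 at 14.1 and 26.3 (0.85). Smad3, a signal carrier of TGF-beta, was at 6.12 and 12.7 FPKM, and the TGF-beta target Tgfbi at 1.25 against 2.67. The 5 counted receptor genes were all below 0, with Tgfbr3 the lowest at -0.50. Over the 38 counted genes of the list, 2 were higher (0.508% over all counted genes outside small RNAs) and 0 lower, and the median was 0.10. With a pseudocount of 0.1 in place of 1, 6 were higher, and with a mean of at least 5 FPKM required the median was 0.53.

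Genes linked to stem-like or progenitor cells pointed in different directions. Sox4 was at 3.24 FPKM in vehicle and 8.70 with ATRA, Sox2 at 3.20 and 7.44, and the bile duct factor gene Sox9 at 1.19 and 2.69. The Sox2 row overlaps another row of the table. Ly6a, which encodes the surface antigen Sca-1, was at 28.2 FPKM against 9.36 with ATRA, and Klf4 and Myc at 8.11 against 3.90 and 44.7 against 26.5. Cd44 was at 61.8 and 42.2 FPKM. Of 23 counted markers 2 were higher and 1 lower, with a median of -0.07. Over all counted genes outside small RNAs, 0.508% were higher and 0.897% lower. In the mesenchymal and matrix list 0 of 25 counted genes were called, and Tpm1 had the highest difference at 0.86 (120 FPKM against 218). Of 42 hepatocyte genes measured 1 was counted (Glul, 12.4 FPKM against 18.7), and Alb, the albumin gene, was not.

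Interferon-stimulated genes were the largest lower group. They are normally switched on by STAT and IRF factors downstream of interferon receptors and encode antiviral proteins. Of 73 counted genes in the list, 35 were lower and none was higher (median -0.98), where 0.897% of counted genes outside small RNAs were lower. Several of the 35, among them Ifit1, Usp18 and Gbp2, reached the filter only through the vehicle library. For these, being counted and being lower are not separate facts. With no filter, 37 of the 107 listed genes in the table were lower, as were 123 of all 23359 rows. The same limit and share apply to the counts by role below. These 35 made up 46.1% of the 76 lower genes. Across the 35, levels ran from 3.03 to 24.5 FPKM in vehicle (median 8.28) and from 0.540 to 8.45 with ATRA (median 2.50). The vehicle level was 2.22-fold to 5.62-fold the ATRA level, with a median of 3.27. With 1 library a side, an unusual vehicle culture and a lower level under ATRA cannot be told apart.

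The lower level was not alike across the steps of the pathway. Receptor genes were near 0: Ifnar1 was at 2.002 FPKM in vehicle and 2.14 with ATRA, Ifnar2 at 3.998 and 5.15, and none of the 5 counted ligand and receptor genes was called. Among transcription factors, Irf7, which amplifies interferon production, was at 11.3 FPKM against 3.20 with ATRA. Stat2 and Irf9 were at 5.36 against 2.37 and 7.65 against 4.63, under the mark, while Irf1 and Irf3 differed by -0.25 and -0.16. The RNA sensors Ddx58 (RIG-I) and Ifih1 (MDA5) were at 8.89 against 3.94 and 3.28 against 1.23, and their shared adaptor gene Mavs at 3.41 against 3.25. Tmem173, which encodes the DNA-sensing adaptor STING, was at 2.45 and 2.62. Of the counted factors 2 of 9 and of the sensors 1 of 6 passed the mark.

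Antiviral effector genes held most of the calls. Of 8 counted IFIT and OAS genes 7 were lower, with a median of -1.42. Ifit1, which binds foreign RNA ends, was at 9.85 FPKM in vehicle, 2.35 with ATRA, 0.0517 with SAHA and 0.0530 in the combination. Oas3, a synthetase that activates RNase L, was at 13.1, 3.49, 0.400 and 0.325 in the same order. The Oas1 family shares reads between paralogs, and its sum over 8 rows was 34.9 FPKM in vehicle and 11.0 with ATRA. Among GTPases 5 of 6 counted were lower, with Gbp3 at 4.10 FPKM against 0.758 and Irgm1 at 10.3 against 4.36. Usp18, the protease that removes ISG15 and restrains the interferon receptor, was at 10.1 FPKM in vehicle, 1.98 with ATRA, 0.336 with SAHA and 0.405 in the combination. Isg15 was at 4.97 against 1.16.

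Of 7 genes of the p200 family of DNA-binding proteins 6 were counted, and these 6 were lower, from Ifi202b at -1.05 to Mndal at -1.498. These genes are close paralogs, and their summed level over 7 rows was 96.1 FPKM in vehicle and 32.1 with ATRA. Among membrane and other effectors 12 of 26 were lower, including the antiviral genes Rtp4 (11.6 FPKM against 4.04) and Samd9l (9.30 against 2.35). The other 14 did not pass the mark, among them 3 abundant genes of 1 family. Ifitm1 was at 32.2 FPKM in vehicle and 41.0 with ATRA, Ifitm2 at 83.6 and 89.0, and Ifitm3 at 184 and 123. Socs2, a cytokine signalling inhibitor, was at 1.18 and 2.47 FPKM.

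Ly6 surface antigens and MHC class I genes are also known to be induced by interferon, and Ly6 genes alone among these held calls. Ly6c1 and Ly6c2 were at 27.2 and 25.6 FPKM in vehicle and at 8.41 and 7.97 with ATRA, and Ly6f at 12.2 and 3.997. The 9 Ly6 rows examined summed to 216 FPKM in vehicle and 103 with ATRA. Of the 6 counted members 5 were lower, where 0.897% of all counted genes outside small RNAs were. Ly6e, the most abundant, was not among the 5 at 111 and 69.0 FPKM (-0.68). This family was grouped after its values were seen, and its members share sequence. All 12 counted MHC class I and antigen processing genes lay below 0 and 0 were called, with a median of -0.29. H2-K1 was at 82.6 and 74.3 FPKM, B2m at 242 and 175, and the peptide transporter gene Tap1 at 2.46 and 1.17. Csf1 and Ccl2, a growth factor and a chemokine for monocytes, were at 14.3 against 6.09 and 7.81 against 3.47, while Vcam1 was at 12.3 against 11.6. Of 17 macrophage genes measured 1 was counted (Cd68, 1.89 FPKM against 2.41), and of lymphocyte genes 0 of 14.

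**Figure D3:**
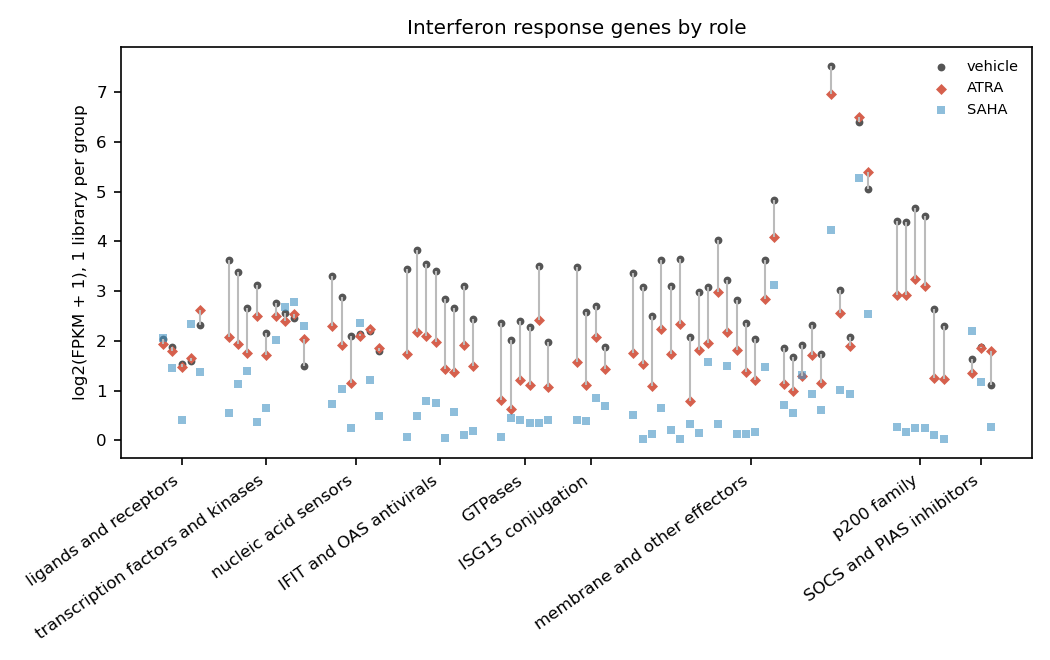
Expression as log2(FPKM + 1) (vertical axis) of the 73 counted interferon response genes, grouped by role and ordered within a role by the ATRA minus vehicle difference, with 1 marker per library for vehicle, ATRA and SAHA. Grey lines join vehicle and ATRA. Effectors and the p200 family have long lines, receptors short ones, and most effectors are lowest with SAHA.

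Many promoters of the lower interferon genes held the same short element, and examples are shown here because these genes lay below vehicle together. The interferon-stimulated response element was searched as a pair of GAAA blocks with any 2 bases between them, on both strands (TTTC blocks are the same element read from the other strand), in RefSeq promoters of 300 bases on GRCm38.p6 (the assembly of mm10), from 250 before to 50 after each start. Adjacent matches may overlap. Capitals mark the matches in the 250 bases before the start of Ifit1 (chr19:34640639-34640888, plus strand) and Isg15 (chr4:156200819-156201068, minus strand), printed 5′ to 3′ along the gene, and in shorter windows of 3 other genes.
Ifit1: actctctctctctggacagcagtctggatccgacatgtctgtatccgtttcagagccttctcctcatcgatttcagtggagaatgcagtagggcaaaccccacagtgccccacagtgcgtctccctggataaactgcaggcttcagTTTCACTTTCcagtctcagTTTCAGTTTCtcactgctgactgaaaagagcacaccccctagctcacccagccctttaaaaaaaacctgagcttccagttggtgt
Isg15: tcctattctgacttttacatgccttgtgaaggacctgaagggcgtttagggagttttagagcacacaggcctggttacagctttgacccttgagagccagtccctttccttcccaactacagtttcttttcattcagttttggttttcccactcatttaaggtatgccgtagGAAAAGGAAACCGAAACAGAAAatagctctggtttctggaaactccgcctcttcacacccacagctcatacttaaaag
Oas3: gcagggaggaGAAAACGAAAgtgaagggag
Gbp2: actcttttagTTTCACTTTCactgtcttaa
Igtp: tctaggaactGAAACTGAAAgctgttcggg
Ifit1 holds 2 matches and Isg15 3 overlapping ones. The windows lie at chr5:120777715-120777744 (minus strand) for Oas3, chr3:142620594-142620623 (plus) for Gbp2 and chr11:58199512-58199541 (plus) for Igtp.

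The share of promoters with the element differed between groups of genes. Of the 35 lower interferon genes, 27 had promoters in the RefSeq table, and 18 of their 32 promoters (56.3%) held a match, while 14 held none, among them those of Irf7 and Samd9l. Among interferon genes that were counted and not called it was 10 of 41 promoters (24.4%), among lower genes outside the list 4 of 34 (11.8%), and among all counted genes outside small RNAs 240 of 7996 (3.002%). Over all 32851 promoters of the table the share was 3.44%. Direct repeats of the RAR half-site (AGGTCA and AGTTCA or their forms starting with GG) spaced by 5 bases were found in 1 of 34 promoters of higher genes, that of Blvrb, in 1 of 7996 promoters of counted genes and in 0.0974% of all promoters. Repeats spaced by 2 bases were found in 0 of the 34 and in 0.268% of all. None of the 3 Dhrs3 promoters held either repeat, which says only that these letters are not in these 300 bases. Aldh3a1 and Tgm2 had no entry. Elements for AhR and NRF2 genes were searched too, with N for any base. GCGTG was in 3 of 4 promoters of counted AhR list genes, against 53.8% for all counted genes outside small RNAs. The longer TNGCGTG was in 0 of the 4, against 8.48%. TGANNNNGC was in 46.4% of promoters of counted NRF2 list genes, against 43.2%. In promoters of higher genes GCGTG was in 38.2% and TGANNNNGC in 44.1%.

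Stress genes were lower at 3 points. Ppp1r15a, which encodes the GADD34 subunit that reverses eIF2-alpha phosphorylation, was at 27.0 FPKM in vehicle, 5.56 with ATRA, 2.32 with SAHA and 11.96 in the combination (chromosome 7, 45522917 to 45526268). Ddit3, the CHOP transcription factor gene, was at 25.4, 8.34, 15.6 and 411 in the same order, and its row overlaps another. Atf3 was at 3.19 against 0.905. Yet ER chaperone genes of the same response were slightly above vehicle: 20 of 24 were above 0 and 0 called, with Manf at 5.77 and 9.58 FPKM and Hyou1 at 4.98 and 7.73. Amino acid genes driven by ATF4 had a median of -0.07 over 27 counted members and 0 calls. In the PERK to CHOP branch 3 of 16 were lower, where 0.897% of all counted genes outside small RNAs were.

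Several large housekeeping groups shifted by small amounts in 1 direction without any call. For cytosolic ribosomal proteins 72 of 76 were above 0 (median 0.21), for nuclear-encoded respiratory chain subunits 65 of 68 (0.22), for proteasome subunits 28 of 31 (0.19) and for G1/S and DNA replication genes 36 of 38 (0.21), where 49.5% of all counted genes outside small RNAs were above 0. Mcm3, a subunit of the replicative helicase, was nearest to the mark at 4.76 FPKM against 10.5. Ribosome biogenesis genes lay on the other side, with 34 of 41 below 0 and a median of -0.22, led by the snoRNP proteins Nop56 (29.5 FPKM against 16.6) and Nop58 (25.4 against 15.7). Of 47 counted G2/M genes 0 were called and 30 were above 0 (median 0.08).

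**Figure D4:**
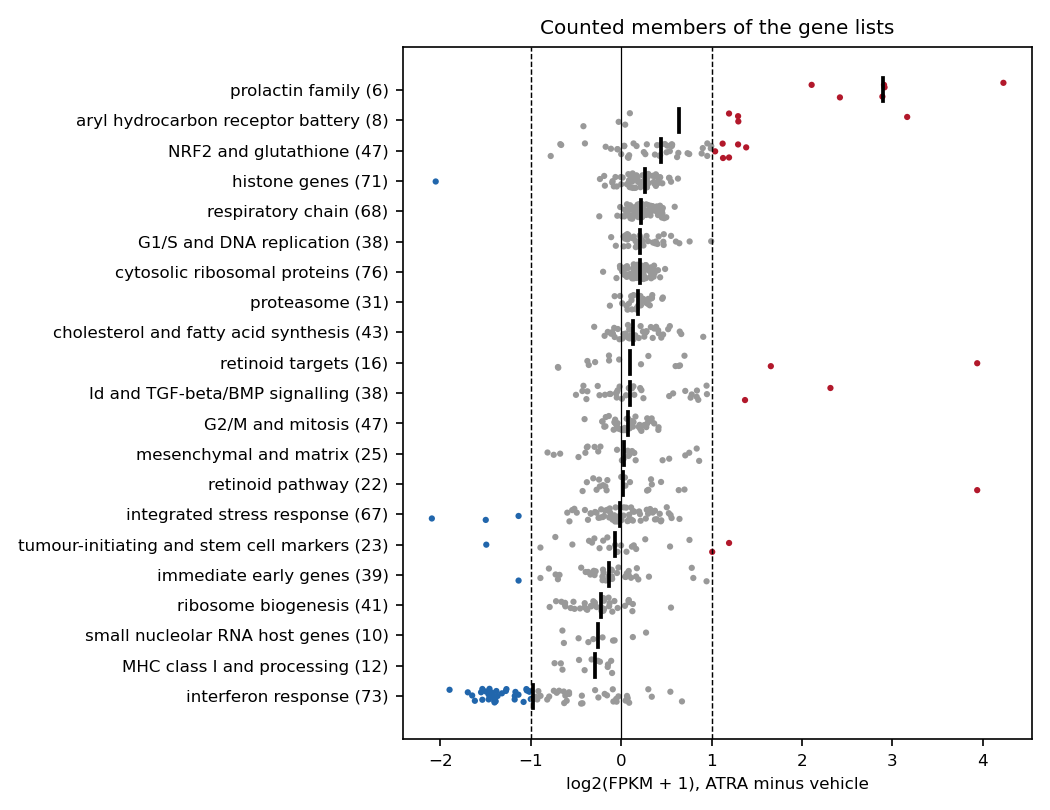
ATRA minus vehicle difference in log2(FPKM + 1) (horizontal axis) of the counted members of selected gene lists, large and small, 1 point per gene. The median is a black bar, the number of counted members is in brackets and the 2-fold marks are dashed. The interferon list lies far to the left (median -0.98), the prolactin list far to the right (2.90), and ribosomal and respiratory chain genes form narrow clouds slightly above 0. With no filter on low values the first 2 medians were -0.76 and 2.26. Of the 6 counted prolactin list genes, 5 are near-identical Prl2c genes that may share reads. Prl2c4 among them passed the filter only through the ATRA library, so nothing is read from the place of this list.

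The pair of cultures with SAHA gave a second view of ATRA. Their libraries enter no difference between ATRA and vehicle, but they do enter the filter on mean FPKM, and with the filter on vehicle and ATRA alone 92 rows were higher and 120 lower in place of 79 and 103. Between the libraries with SAHA, 2.49% of the 8468 genes were higher and 0.709% lower with ATRA, and the median difference was 0.14. Of the 43 genes higher with ATRA alone, 1 was also higher when ATRA was added to SAHA, which is 2.33% of the 43 and 0.474% of the 211 genes higher there. That gene was Igfbp4, an IGF-binding protein gene, at 56.1 FPKM in vehicle, 118 with ATRA, 1.76 with SAHA and 9.34 in the combination. The proliferin rows each lay inside the mark there. Their sum, 0.444 FPKM with SAHA and 2.14 in the combination, differed by 1.12, at levels near the floor. Of the 43 genes, 16 were under 1 FPKM in both SAHA libraries, and of the 27 that were not, 25 lay inside the 2-fold mark. Aldh3a1, Tgm2 and Id2 differed by 0.51, 0.45 and -0.50 between the combination and SAHA, and Dhrs3, at 0.119 and 0.153 FPKM, by 0.04.

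Genes lower with ATRA alone mostly could not be compared in this way. Of the 76, 54 were under 1 FPKM in both libraries with SAHA, among them Ifit1 and Usp18. Of the other 22, 5 were lower and 5 higher when ATRA was added to SAHA. The 5 that were lower in both pairs, 6.58% of the 76 and 8.33% of the 60 lower there, were chosen for mention after their values were seen: Mat2a, which makes S-adenosylmethionine (33.8 FPKM in vehicle, 12.6 with ATRA, 6.24 with SAHA, 0.880 with both), the protease-activated receptor gene F2rl1 (3.59, 0.717, 7.24 and 1.34), the natriuretic peptide gene Nppb (4.43, 1.31, 12.4 and 3.93), the mitochondrial leucyl-tRNA synthetase gene Lars2 (6.38, 2.53, 49.04 and 5.16) and the predicted gene Gm21312, whose ATRA values were near 0. Whether SAHA alters the response to ATRA was not tested, since each pair has 1 library a side.

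**Figure D5:**
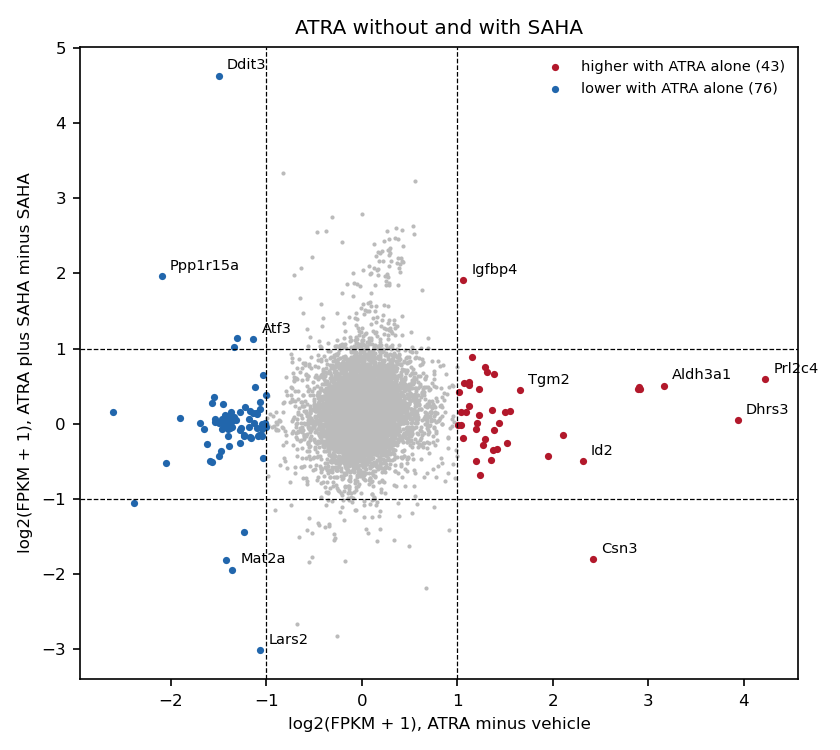
Log2(FPKM + 1) of ATRA minus vehicle (horizontal axis) against that of ATRA plus SAHA minus SAHA (vertical axis) for the counted genes outside small RNAs, with the 2-fold marks dashed. The 43 genes higher with ATRA alone (red) and the 76 lower (blue) mostly lie between the horizontal marks, and the pairs share no library.

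Values near the 2-fold mark differed little on either side of it. Sox2, Lipe and Selp were just inside at 1.01, 1.02 and 1.04, and Gstp2, Mcm3 and Gstp1 just outside at 0.996, 0.995 and 0.991. On the lower side Ndrg1, Ddx58 and Sp100 were just inside at -1.001, -1.001 and -1.02, and Dtx3l, Filip1l and Amigo2 just outside at -0.996, -0.98 and -0.98.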

How the data were processed

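Ribosomal RNA was removed from total RNA, per the labels' protocols. The submitters' processing notes name Trimmomatic 0.32, Cuffdiff and the mm10 build. Aligner, Cuffdiff version, annotation and strand setting: not given in the sources used here. Values deposited by the authors are FPKM, 1 column per library, per the file headers. FPKM is unreliable for transcripts shorter than a fragment, so counts are also given without small RNAs, and a value of 0 can be a failed estimate. Reads from overlapping rows or paralogs were not separated.

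With 1 library per group, differences of log2(FPKM + 1) over rows averaging 1 FPKM or more across all libraries are described by size, with 1 as the mark. In 27 rows the symbol had become a date and was restored from its description. The 42 gene lists came from general knowledge, and the members and lists were chosen with earlier results of these data known. Of their 1445 symbols 1425 were in the table. Genes named are the 20 highest and 20 lowest that reached 5 FPKM in either library (predicted genes, pseudogenes and small RNAs left out), up to 6 leading members a list in each direction, all retinoid and prolactin genes, and 3 on each side of the mark, with those chosen later said to be so. Depth was estimated from the smallest step of FPKM times length over 933 (vehicle) and 889 (ATRA) low genes with 1 GENCODE M21 transcript, and the next step was 1.92 and 2.05 times as large. The size rule was run on simulated data with 200 changed genes, all abundant in vehicle and changed by more than the mark. Such a run checks that the rule works as written and says nothing of how reliable the calls are. Python 3.11.15, pandas 2.3.3 and matplotlib 3.10.9 were used. Alternatives were another pseudocount, other filters, centring, a 1.5-fold mark, and leaving out small RNAs or overlapping rows. Some genes are not reported here.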

Additional observations from a re-analysis of the deposited data

Results flagged for a closer look

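For 6 named genes the difference under ATRA was past the 2-fold mark in opposite directions without and with SAHA. They were 5 of the 76 genes lower with ATRA alone and 1 of the 43 higher. Over all 8468 genes, 2.49% were higher and 0.709% lower when ATRA was added to SAHA, with a median difference of 0.14. The difference between the pairs was not tested, and each side is 1 library. Ppp1r15a stood at -2.10 in ATRA against vehicle and at 1.97 in SAHA plus ATRA against SAHA. Ddit3 stood at -1.499 and 4.64, and Atf3, which belongs to the same stress response, at -1.14 and 1.12. Nfil3, a repressor of D-box genes, stood at -1.31 and 1.14, and Tsc22d3, the glucocorticoid-induced leucine zipper gene, at -1.34 and 1.03. Csn3 was the only one of the 6 above vehicle with ATRA, at 2.42, and stood at -1.81 with SAHA present.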

How the results depend on the processing

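The median shift of counted rows was -0.00, so centring changed neither count (79 higher, 103 lower). The count of higher rows was 130 with a pseudocount of 0.1, 37 with a mean of at least 5 FPKM, 43 without small RNAs, 41 without overlapping rows and 266 at a 1.5-fold mark. The count of lower rows was 29 with a mean of at least 5 FPKM, 68 without overlapping rows and 238 at the 1.5-fold mark, and stayed within 1.5 times of 103 otherwise (143 with a pseudocount of 0.1, 123 with no filter, 120 with the filter on vehicle and ATRA alone, 76 without small RNAs). Interferon genes called lower were 44 with a pseudocount of 0.1, 37 with no filter and 5 with a mean of at least 5 FPKM, a filter that takes in the low SAHA libraries. NRF2 genes called higher were 10 with a pseudocount of 0.1. The 20 highest and 20 lowest named genes kept their direction and stayed past the mark with a pseudocount of 0.1 and with centring. Neither setting could have given another outcome, so nothing is read from this. A smaller pseudocount can only enlarge a difference, and the median shift was -0.00. No paired analysis was possible because each group has 1 library. Leaving out a library was not possible for the same reason. Genes under about 1 FPKM with SAHA limit the second pair.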

Other observations

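Of 12 counted clock genes 1 was higher and 2 lower, where 0.508% and 0.897% of all counted genes outside small RNAs were. The higher gene, Dbp, reached the filter only through the ATRA library, so its being counted and its being called are not separate facts. Dbp, a D-box activator, was at 1.36 FPKM in vehicle and 5.69 with ATRA, and its relative Tef at 1.88 and 3.27. Nfil3, which represses the same sites, was at 10.9 and 3.81. The core activator gene Arntl was at 3.28 and 1.04, while Nr1d1 and Nr1d2, which repress Arntl, were at 0.909 against 1.84 and 3.21 against 5.50. Tef, Nr1d1 and Nr1d2 did not pass the mark, and the Dbp row overlaps another. With a mean of at least 5 FPKM required, 0 were higher and 1 lower.

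Small RNAs behaved unlike other rows. Of 148 counted, 36 (24.3%) were higher and 27 (18.2%) lower, and 30 of the 36 were listed at 0 in the vehicle library and 23 of the 27 at 0 in the ATRA library. Scarna2, a Cajal body RNA also chosen after its values were seen, was called higher with values above 0 in both libraries, at 468 FPKM in vehicle and 1243 under ATRA. Genes outside the lists and chosen after their values were seen include Cav1, the caveolin gene, at 71.0 FPKM in vehicle and 29.8 with ATRA, and Osr1, which encodes a transcription factor, at 6.08 and 1.93. Esd and Ckb, an esterase and the brain creatine kinase, were at 36.4 against 92.2 and 7.73 against 32.9. Upk3bl, Prss12 and Mmd were at 1.43 against 6.12, 1.60 against 6.45 and 6.23 against 17.7 FPKM.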
